A study of Mus musculus with 18 samples.

Results

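Promoters of long noncoding genes away from any coding start stood for 1278 of the 58386 extended regions on the 19 autosomes (2.19%, 95% Wilson interval 2.07% to 2.31%), out of 59617 extended regions in all. An extended region is a reference peak that the authors had lengthened in both directions and merged with any other peak it then reached, and each was represented by its summit with the highest score. The summit had to lie within 1000 bp of a transcript start of a long noncoding RNA (lncRNA) gene and over 1000 bp from every transcript start of a protein-coding gene (GENCODE M21 annotation, mm10 coordinates). Regions whose best summit lay within 1000 bp of a coding start (12548, coding promoters) and regions whose best summit lay over 1000 bp from any annotated start (43849, distal summits) served as the comparison, and 711 regions near other kinds of starts were left aside. The score chose which summit stood for a region, and the class of that summit was then set by position alone. The rule looks at the best summit and not at the rest of its region, so 24 member regions held a coding start elsewhere and 28 held another summit within 1000 bp of one. Leaving out the 24, and 463 distal regions with a coding start, gave 1254 members, a median score of 889 and no change in the call of any difference recomputed.

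The accessible regions came from ATAC-seq, in which the Tn5 transposase cuts exposed DNA, of primary bone marrow-derived macrophages from wild type mice. All cells received the vehicle DMSO for 1 h and were then left untreated or stimulated with LPS, a bacterial activator of Toll-like receptors, or IL-4, a cytokine of type 2 immunity, at 10 ng/mL each for 30 min, 1 h, 2 h or 4 h. There were 2 libraries in each of 9 groups, 18 in all, and the authors pooled them into 1 list. No library has a column of its own, so responses to LPS or IL-4, the spread between libraries and their depth could not be examined here. As a check of the labelled cell type, a reference peak lay within 1000 bp of a start of 8 of 8 macrophage marker genes, among them Csf1r, Spi1 and Adgre1. The same held for 3 of 8 genes that mark other cells (Pax5, Pecam1 and Gfap), whereas the rest, such as Cd3e, Epcam and Alb, had none.

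Long noncoding RNAs are transcripts without a long conserved reading frame. Some act as nuclear scaffolds, some host microRNAs or small nucleolar RNAs in their introns, and for many no function is known. Their promoters are bound by RNA polymerase II like those of coding genes, but many lack a CpG island, the stretch of CpG-rich and usually unmethylated DNA at most broadly active promoters. In macrophages, PU.1 and AP-1 are known for occupying enhancers together with partner factors, whereas SP/KLF, NF-Y and ETS/GABPA factors are known for binding at CpG-rich promoters.

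The sequences of 8 of these promoters show the kinds of motif that the shares given further on count. They were chosen after the motifs had been searched, and only among members with at least 1 match. No match was found at 477 of the 1278 members (37.3%), so these windows do not show how common matches are. Ptgs2os2, Gm14005 and Mirt1 are lncRNA genes of a macrophage list, Il1bos, 4933432I03Rik and Gm34643 lie near the LPS-induced coding genes Il1b and Acod1, and 1700096K18Rik and Gm33524 were among the highest scored members. Each line gives 201 bases centred on the summit, 5′ to 3′ in the direction of the lncRNA gene, from the GRCm38.p6 assembly (mm10 coordinates). Capitals mark every match to 1 of 16 consensus motifs on either strand.
Ptgs2os2, chr1:150164950-150165150, minus strand: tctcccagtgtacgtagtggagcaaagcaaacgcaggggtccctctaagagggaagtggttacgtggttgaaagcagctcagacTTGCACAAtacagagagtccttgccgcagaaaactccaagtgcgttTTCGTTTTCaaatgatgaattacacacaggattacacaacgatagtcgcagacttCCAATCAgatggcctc
Gm14005, chr2:128429317-128429517, minus strand: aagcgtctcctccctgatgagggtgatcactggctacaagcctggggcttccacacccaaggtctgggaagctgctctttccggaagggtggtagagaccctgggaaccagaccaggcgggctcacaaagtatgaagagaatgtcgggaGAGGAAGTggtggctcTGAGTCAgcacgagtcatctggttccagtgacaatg
Mirt1, chr19:53464739-53464939, minus strand: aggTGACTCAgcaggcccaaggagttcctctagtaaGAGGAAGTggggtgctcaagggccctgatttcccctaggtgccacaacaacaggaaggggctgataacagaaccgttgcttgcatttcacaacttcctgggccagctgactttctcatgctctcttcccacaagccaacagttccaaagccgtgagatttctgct
Il1bos, chr2:129373368-129373568, plus strand: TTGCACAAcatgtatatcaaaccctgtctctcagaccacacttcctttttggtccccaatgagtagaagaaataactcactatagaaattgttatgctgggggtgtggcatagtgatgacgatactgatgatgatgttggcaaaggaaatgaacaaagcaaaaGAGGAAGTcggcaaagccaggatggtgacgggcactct
4933432I03Rik, chr14:103033533-103033733, minus strand: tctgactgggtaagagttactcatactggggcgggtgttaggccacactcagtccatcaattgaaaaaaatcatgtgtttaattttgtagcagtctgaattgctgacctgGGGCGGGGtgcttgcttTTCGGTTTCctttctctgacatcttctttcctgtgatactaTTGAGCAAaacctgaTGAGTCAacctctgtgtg
Gm34643, chr14:103012651-103012851, plus strand: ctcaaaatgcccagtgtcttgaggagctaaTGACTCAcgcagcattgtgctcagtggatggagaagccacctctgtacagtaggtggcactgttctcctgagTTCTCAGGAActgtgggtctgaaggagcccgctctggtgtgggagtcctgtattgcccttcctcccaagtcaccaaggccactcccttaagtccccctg
1700096K18Rik, chr5:25529596-25529796, plus strand: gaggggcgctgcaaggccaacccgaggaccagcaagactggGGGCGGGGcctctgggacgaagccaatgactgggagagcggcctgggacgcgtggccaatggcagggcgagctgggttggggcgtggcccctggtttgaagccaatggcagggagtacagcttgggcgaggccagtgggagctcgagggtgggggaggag
Gm33524, chr14:70057042-70057242, minus strand: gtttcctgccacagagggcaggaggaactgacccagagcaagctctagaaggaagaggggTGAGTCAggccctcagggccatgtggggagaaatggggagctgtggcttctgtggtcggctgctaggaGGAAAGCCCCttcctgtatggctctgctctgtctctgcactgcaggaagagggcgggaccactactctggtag

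In these 8 windows the capitals mark PU.1 (GAGGAAGT) in Gm14005, Mirt1 and Il1bos, and AP-1 (TGAGTCA) in Gm14005, Mirt1, 4933432I03Rik, Gm34643 and Gm33524. C/EBP (TTGCNNAA) is marked in Ptgs2os2, Il1bos and 4933432I03Rik, and IRF (GAAANNGAA) in Ptgs2os2 and 4933432I03Rik. SP/KLF (GGGCGGGG) is marked in 4933432I03Rik and 1700096K18Rik, NF-Y (CCAATCA) in Ptgs2os2, STAT6 in Gm34643 and NF-kB in Gm33524. A match is a description of the letters, not evidence that the factor was bound.

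The genes behind the 1278 promoters were described first. Nearest to the summit was a lincRNA, a transcript unit between genes, in 608 cases (47.6%), an antisense gene in 258 (20.2%), a TEC gene (an unverified, mostly single-exon model) in 219 (17.1%) and a processed transcript in 151 (11.8%). Sense intronic genes accounted for 38, and bidirectional and sense overlapping genes for 2 each. The nearest genes numbered 1241, and 36 of them were nearest to more than 1 member. The most, 3, were found for 2210408F21Rik on chromosome 6, with scores of 1002, 1117 and 384. Only 47 members lay within 1000 bp of starts of more than 1 lncRNA gene.

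Most members lay outside coding genes. A coding gene body held 437 of the 1278 summits (34.2%, 95% Wilson interval 31.6% to 36.8%, compared with 55.5% of all autosomal best summits), in 57 cases (4.46%) within an exon. The nearest coding start was at most 2500 bp away for 109 members, at most 10000 bp for 297 more, at most 50000 bp for a further 526 and at most 100000 bp for a further 179, and it was farther for 167. Antisense members were mostly inside coding genes (73.6%), and lincRNA members rarely (6.09%). These types are defined by position relative to other genes, so their shares describe the annotation. The share of 34.2% depends on the mix of such types. Members ranged from 26 on chromosome 18 to 107 on chromosome 5. Per megabase, the lowest density was also that of chromosome 18 (0.287) and the highest that of chromosome 19 (0.798).

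Summits near lncRNA starts were often shared with coding genes. Of the 2552 best summits within 1000 bp of a lncRNA start, 1274 (49.9%) also lay within 1000 bp of a coding start and are therefore coding promoters here. These shared summits had a median score of 1518, and 83.0% were CpG-rich. At the lncRNA limit, the last members inside were Gm15346 (1000 bp, score 384) and Gm38377 (998 bp, score 421), and the first summits outside lay 1002 bp from 9630010A21Rik (score 534) and Gm43012 (score 979). At the coding limit, members near Gm31881 (score 1345) and Gm43566 (score 664) lay 1013 bp from Gipc2 and 1020 bp from Srpk2, while summits near Gm15663 (score 1773) and 4930579G18Rik (score 945) fell out at 996 bp from Tmtc2 and 993 bp from Acin1.

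Accessible starts were rarer among lncRNA genes than among coding genes. A reference peak lay within 1000 bp of an eligible start, one over 1000 bp from coding starts, in 1546 of 10594 lncRNA genes (14.6%, 95% Wilson interval 13.9% to 15.3%), and within 1000 bp of a start in 12057 of 20807 coding genes (57.9%, interval 57.3% to 58.6%). The share was lower for lncRNA genes on 19 of 19 chromosomes, with a mean difference of -43.3 percentage points (SD 5.78, n = 19 chromosomes; exact two-sided sign-flip permutation test over chromosomes, adjusted p = 2.75e-05). Coding genes have more annotated starts, with means of 4.34 against 1.30. Coding genes were counted over all their starts. With every lncRNA start counted as well, near a coding start or not, the share was 2929 of 12625 lncRNA genes (23.2%) and the mean difference -34.5 points (exact permutation test, adjusted p = 2.75e-05). Among genes with 1 annotated start, the shares were 12.5% of 8896 lncRNA genes and 28.6% of 4406 coding genes.

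Processed transcripts had the highest share of the larger lncRNA types. A start site peak was found in 166 of 515 of them (32.2%, interval 28.3% to 36.4%), in 323 of 1967 antisense genes (16.4%, 14.8% to 18.1%), in 716 of 4867 lincRNA genes (14.7%, 13.7% to 15.7%), in 41 of 305 sense intronic genes (13.4%, 10.1% to 17.7%) and in 295 of 2897 TEC genes (10.2%, 9.13% to 11.3%). Processed transcripts also have the most starts among these types, 2.59 on average.

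Accessibility at lncRNA-only promoters was then ranked by the summit score. The score is the value that the authors' merged peak call gives a summit. Its scale is not stated, so it orders summits and gives no fold. The median of the members was 900, their quartiles were 593 and 1329 and their extremes 147 and 2442, compared with medians of 1345 (quartiles 911 and 1734) at coding promoters, 716 (495 and 1094) at distal summits and 823 over all autosomal regions. The members thus lay between both classes, and their range overlapped widely with each. The median was lower than at coding promoters on 19 of 19 chromosomes (mean difference -454, SD 107) and higher than at distal summits on 19 of 19 (mean difference 165, SD 76.8). These are differences between best summits, and the same score picked the best summit of each region, from more summits at coding promoters (1.81 per region) than at members (1.504) or distal summits (1.31). With every summit counted on its own, the medians were 780 at members, 1036 at coding promoters and 675 at distal summits. The mean differences were then -252 (exact sign-flip permutation test over chromosomes, adjusted p = 3.17e-05) and 110 (adjusted p = 7.27e-05 by the same exact permutation test). Over the alternative settings the difference from coding promoters lay between -520 and -252. That from distal summits lay between 90.7, with summits at or above the median score, and 284, with lncRNA transcripts of support level 1 or 2.

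**Figure D1:**
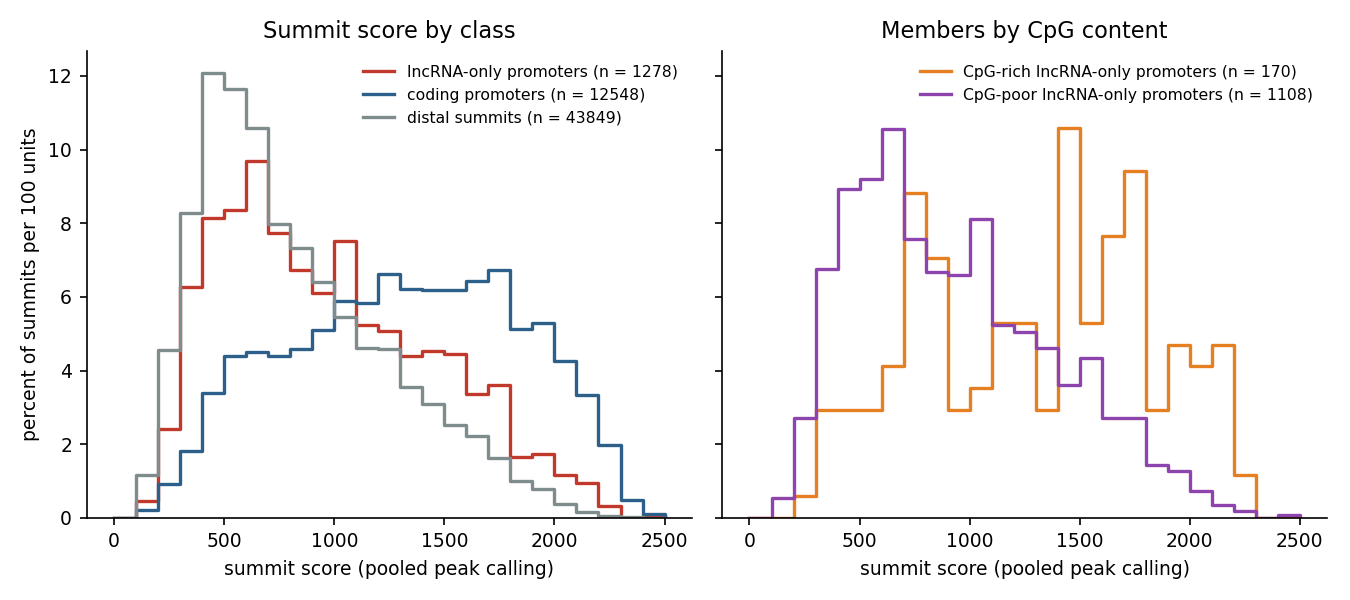
Share of summits (percent per 100 score units) against the summit score, for the 3 classes (left) and for members split by CpG content (right). The 1278 lncRNA-only promoters (median 900) lie between distal summits (716) and coding promoters (1345), and the 170 CpG-rich members (median 1412) lie above the 1108 CpG-poor ones (850.5).

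Chromosomes varied among themselves. The median score of members ranged from 748 on chromosome 3 to 1025 on chromosome 13 (mean 884, SD 84.6, n = 19), whereas coding medians ranged from 1224 to 1406 and distal medians from 695 to 748. A chromosome held 26 to 107 members, and the part of these numbers in the spread was not tested.

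**Figure D2:**
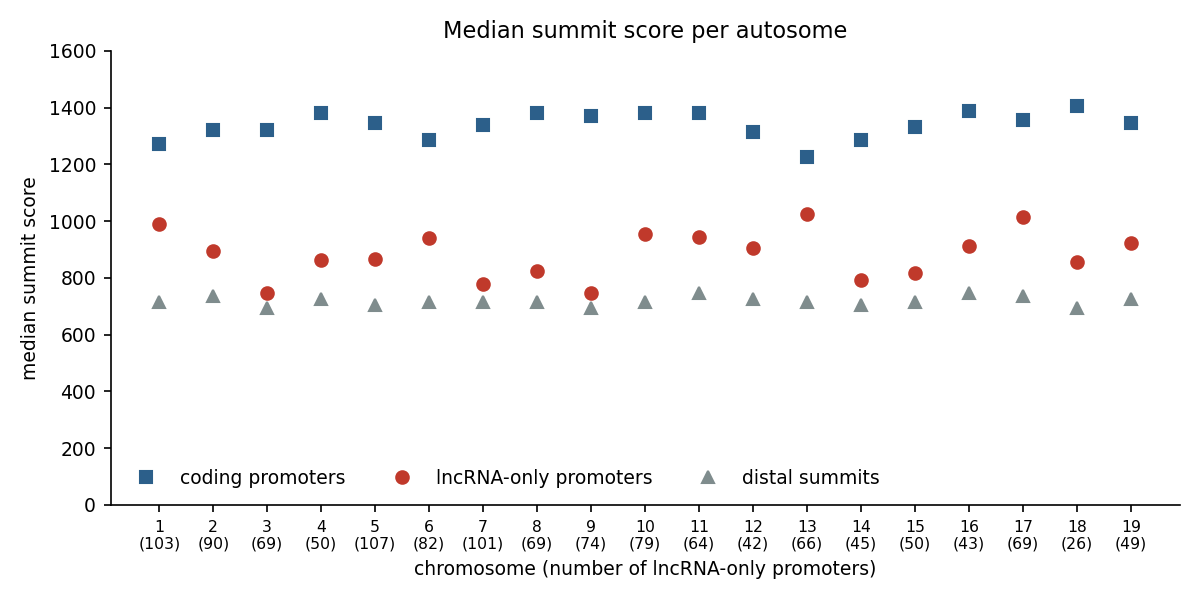
Median summit score (vertical axis, from 0) on each of 19 autosomes, with the number of lncRNA-only promoters under the chromosome. On every autosome the members (circles, 748 to 1025) lie between coding promoters (squares, 1224 to 1406) and distal summits (triangles, 695 to 748).

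The same order held for the extent of the accessible DNA. The reference peak around the best summit had a median width of 238 bp at members, 322 bp at coding promoters and 221 bp at distal summits. The mean difference was -84.6 bp to coding promoters (19 of 19 chromosomes lower) and 18.03 bp to distal summits (18 of 19 higher). An extended region held 1.504 summits on average at members, 1.81 at coding promoters and 1.31 at distal summits, and 855 members (66.9%) had a single summit. Each of these 4 differences passed the exact sign-flip permutation test (adjusted p between 2.75e-05 and 4.34e-05). Their sizes changed with the setting. With every summit on its own the width differences were -45.7 bp to coding promoters and 13.7 bp to distal summits. With lncRNA transcripts of support level 1 or 2, the width difference from distal summits was 35.5 bp, and the differences in summits per region were -0.166 (against -0.307; exact permutation test, adjusted p = 0.0313) to coding promoters and 0.339 (against 0.198) to distal summits. With start windows of 2500 bp the width differences were -55.6 and 11.4 bp.

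The CpG-rich share of members lay between those of the other classes and near that of all regions. CpG-rich was defined as an observed over expected CpG ratio of at least 0.6 and a GC content of at least 50% within 250 bp of the summit. This held for 170 of 1278 members (13.3%, 95% Wilson interval 11.5% to 15.3%), compared with 64.0% of coding promoters, 1.35% of distal summits and 15.1% of all 58386 autosomal regions. On 19 of 19 chromosomes the share lay below that of coding promoters (mean difference -51.2 percentage points, SD 5.95) and above that of distal summits (11.9 points, SD 4.50; exact sign-flip permutation test, adjusted p = 2.75e-05 each). The difference in CpG-rich share from distal summits lay between 6.96 points, with a start window of 2500 bp, and 18.9 points, with support level 1 or 2. Mean GC content was 50.3% at members, 59.7% at coding promoters and 46.5% at distal summits. Repeat-masked bases made up 11.4% of the sequence within 50 bp of member summits, 6.15% at coding promoters and 14.3% at distal summits. The central 32 bases occurred more than once in the genome at 51 members (3.99%), where reads may not have been placed uniquely.

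CpG content divided the members. The 170 CpG-rich members had a median score of 1412 and the 1108 CpG-poor members one of 850.5 (higher on 18 of 19 chromosomes). The score had picked these summits, so every summit was also counted on its own. The medians were then 1135 for 264 CpG-rich and 737 for 1727 CpG-poor summits (higher on 17 of 19 chromosomes; exact sign-flip permutation test, adjusted p = 0.000720 over 11 comparisons chosen after the values were seen). Of the CpG-rich members, 28.8% (49 of 170) reached 1670, the 90th percentile of the scores of all autosomal best summits, compared with 7.94% (88 of 1108) of the CpG-poor ones. CpG-rich members also had wider peaks, with medians of 337 and 231 bp.

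Members were also compared with coding promoters and distal summits of the same CpG class. CpG-poor members scored lower than CpG-poor coding promoters (850.5 against 968, mean difference -122, SD 112, lower on 16 of 19 chromosomes; exact sign-flip permutation test, adjusted p = 0.000317) and higher than CpG-poor distal summits (716, mean difference 130, higher on 18 of 19). The score had picked these summits, from more per region at CpG-poor members (1.447) than at CpG-poor distal regions (1.304). With every summit on its own, the difference from CpG-poor distal summits was 84.5 (737 against 664; exact permutation test, adjusted p = 0.000444), and it did not pass with summits at or above the median score (48.5; adjusted p = 0.102). The difference from CpG-poor coding promoters lay between -276 and 5.45 over the alternative settings, and it did not pass in 3 of them. As a mean over chromosomes, it was 5.45 when each summit was counted on its own (exact permutation test, adjusted p = 0.842). By the same exact permutation test it was -24.6 with a start window of 2500 bp (adjusted p = 0.291) and -36.7 with lncRNA transcripts of support level 1 or 2 (adjusted p = 0.646). CpG-rich members scored lower than CpG-rich coding promoters (1412 against 1518, mean difference -209, SD 314, lower on 14 of 19; exact permutation test, adjusted p = 0.0209), a difference that 7 of the alternative settings did not keep below 0.05. The difference in peak width from coding promoters did not pass within either class (CpG-poor 231 against 241 bp, exact permutation test, adjusted p = 0.0980, and CpG-rich 337 against 378 bp, adjusted p = 0.100). Summits per region were fewer at CpG-poor members than at CpG-poor coding promoters (1.447 against 1.648, lower on 16 of 19 chromosomes, exact permutation test, adjusted p = 0.000233). Among CpG-rich regions that difference did not pass (1.876 against 1.907, exact permutation test, adjusted p = 0.590). CpG-poor members had wider peaks than CpG-poor distal summits (231 against 220 bp, higher on 16 of 19 chromosomes; exact permutation test, adjusted p = 0.00365), and the mean difference of 12.1 bp lay between 6.92 and 21.6 bp over the alternative settings.

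Summits did not sit at lncRNA starts as tightly as at coding starts. The median distance between the summit and the nearest start was 281 bp (interquartile range 81.3 to 611 bp) at members and 66 bp at coding promoters. Within 100 bp of the start lay 368 members (28.8%, 95% Wilson interval 26.4% to 31.3%) and 7954 coding promoter summits (63.4%, interval 62.5% to 64.2%). Upstream of the start lay 795 members (62.2%) and 71.8% of coding promoter summits. Coding genes have more annotated starts, and no test was made of this difference.

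Members close to the start differed from those farther away. The median score was 1042 for the 368 members within 100 bp, 934 from there to 250 bp (236 members), 817.5 to 500 bp (268), 748 to 750 bp (208) and 834 to 1000 bp (198). The CpG-rich share fell across the same bins from 24.2% to 15.3%, 10.1%, 5.29% and 3.54%. Members within 250 bp of the start (604) were set against those over 500 bp away (406), a split chosen after the values were seen. The nearer ones had a higher median score (1013 against 785.5, higher on 17 of 19 chromosomes). With every summit on its own, in place of those the score had picked, the medians were 900 for 854 near and 675 for 708 far summits (higher on 18 of 19; exact sign-flip permutation test, adjusted p = 0.000126). The nearer members were more often CpG-rich (20.7% against 4.43%; exact permutation test, adjusted p = 0.000162 over 17 such comparisons among members). The SP/KLF motif was more frequent near the start (9.11% against 3.202%, exact permutation test, adjusted p = 0.0267) and the PU.1 motif less frequent (8.11% against 13.3%, exact permutation test, adjusted p = 0.00461). With every summit on its own, the PU.1 difference did not pass (8.20% against 10.3%; exact permutation test, adjusted p = 0.369). For AP-1 the values were 16.2% and 18.2% (exact permutation test, adjusted p = 0.594) and for CTCF 4.47% and 6.16% (adjusted p = 0.499).

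**Figure D3:**
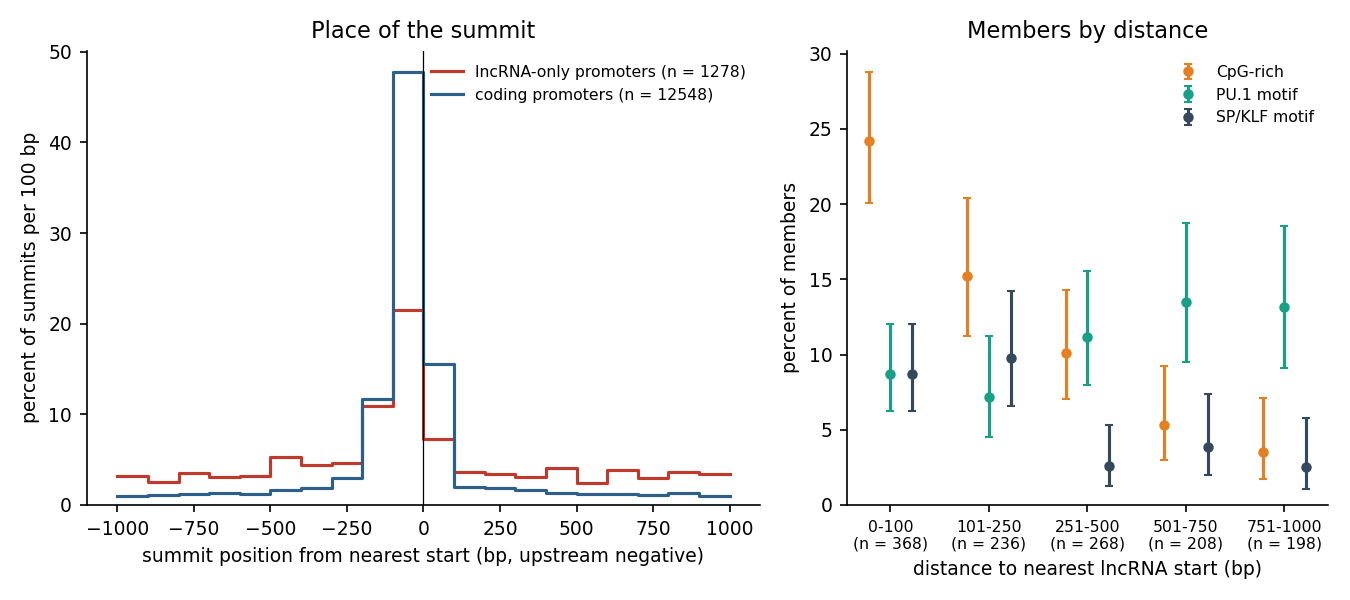
Left, summit position relative to the nearest start (bp, upstream negative) as percent of summits per 100 bp for lncRNA-only and coding promoters. Right, percent of members (95% Wilson intervals) that are CpG-rich or hold a PU.1 or SP/KLF motif by distance to the lncRNA start, where the CpG-rich share falls from 24.2% within 100 bp to 3.54% beyond 750 bp.

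The types of lncRNA gene are described without a test. The median score was 1025 for processed transcripts, 934 for lincRNA, 861.5 for antisense, 834 for TEC and 775 for sense intronic genes, with interquartile ranges that overlapped. CpG-rich were 24.5% of the processed transcript members (95% Wilson interval 18.3% to 31.9%), 15.1% of lincRNA members (12.5% to 18.2%), 8.53% of antisense (5.70% to 12.6%) and 6.39% of TEC members (3.85% to 10.4%). Members at spliced lncRNA transcripts (977) and at single-exon ones (301) had median scores of 911 and 845, a difference that did not pass the exact permutation test (adjusted p = 0.989).

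Motif content was examined next, as the percent of summits with at least 1 match on either strand within 100 bp. At least 1 of the 16 motifs was present at 801 members (62.7%), a share that was not compared with the other classes. The motifs of macrophage enhancers were more frequent at members than at coding promoters. AP-1 matched 18.3% of members, 6.34% of coding promoters and 20.5% of distal summits, and PU.1 matched 10.4%, 4.78% and 11.6%. Over all autosomal regions the shares were 17.4% for AP-1 and 10.1% for PU.1, so the members lay near the share of the whole list for both. Against coding promoters, the mean differences were 12.01 points for AP-1 (higher on 18 of 19 chromosomes; exact sign-flip permutation test, adjusted p = 6.18e-05) and 5.83 points for PU.1 (17 of 19; adjusted p = 7.85e-05 by the same exact permutation test). Against distal summits, AP-1 (-2.06 points, SD 7.57) and PU.1 (-1.04 points, SD 3.800) did not pass (exact permutation test, adjusted p = 0.328 for both). Each was lower than at distal summits in 1 alternative setting: PU.1 with a start window of 500 bp (-2.41 points, exact permutation test, adjusted p = 0.0235) and AP-1 with every summit on its own. Both PU.1 and AP-1 matched at 24 members (1.88%), a count given without a comparison.

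Motifs of CpG-rich promoters went the other way. SP/KLF matched 5.87% of members, 26.8% of coding promoters and 1.72% of distal summits (7.23% of all regions), below coding promoters on 19 of 19 chromosomes (mean difference -20.8 points; exact permutation test, adjusted p = 2.75e-05) and above distal summits on 16 of 19 (4.14 points; exact permutation test, adjusted p = 0.000441). NF-Y matched 4.62%, 9.08% and 2.18%, and ETS/GABPA (CCGGAAGT) 1.49%, 6.36% and 0.511%, each of them between both classes. The adjusted p of the exact permutation test was 4.34e-05 for both motifs against coding promoters, and against distal summits it was 0.0110 for NF-Y and 0.00884 for ETS/GABPA.

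Across the 16 motifs, 7 were more frequent at members than at coding promoters (PU.1, AP-1, C/EBP, RUNX, IRF, NF-kB and CTCF), 6 were less frequent (SP/KLF, ETS/GABPA, NF-Y, NRF1, CRE and YY1), and STAT6, the TATA box and the liver motif HNF4, included as a control, did not pass. Against distal summits, 4 were more frequent (SP/KLF, ETS/GABPA, NF-Y and CRE), 4 less frequent (C/EBP, RUNX, IRF and STAT6), and 8 did not pass. C/EBP, which was searched as TTGCNNAA, matched 10.6% of members, 6.18% of coding promoters and 13.2% of distal summits, and RUNX (TGTGGTT) 7.36%, 3.60% and 9.62%. The motif of CTCF, a factor known for anchoring chromatin loops, matched 5.01% of members, 1.66% of coding promoters and 3.78% of distal summits. It passed against coding promoters (exact permutation test, adjusted p = 0.000526) and not against distal summits (adjusted p = 0.145). With lncRNA transcripts of support level 1 or 2 (546 members), 5 of the differences from coding promoters that passed above, beside NF-kB and CRE, no longer did: CTCF (1.23 points; exact permutation test, adjusted p = 0.272), C/EBP (adjusted p = 0.448), IRF (0.426), NF-Y (0.472) and NRF1 (0.454). With a motif window of 50 bp, YY1 (exact permutation test, adjusted p = 0.133) and IRF (0.160) no longer passed, nor did CRE with summits at or above the median score (0.0694). NF-kB matched 5.63% of members and 4.30% of coding promoters (exact permutation test, adjusted p = 0.0412), and this call was lost in 7 of the alternative settings.

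**Figure D4:**
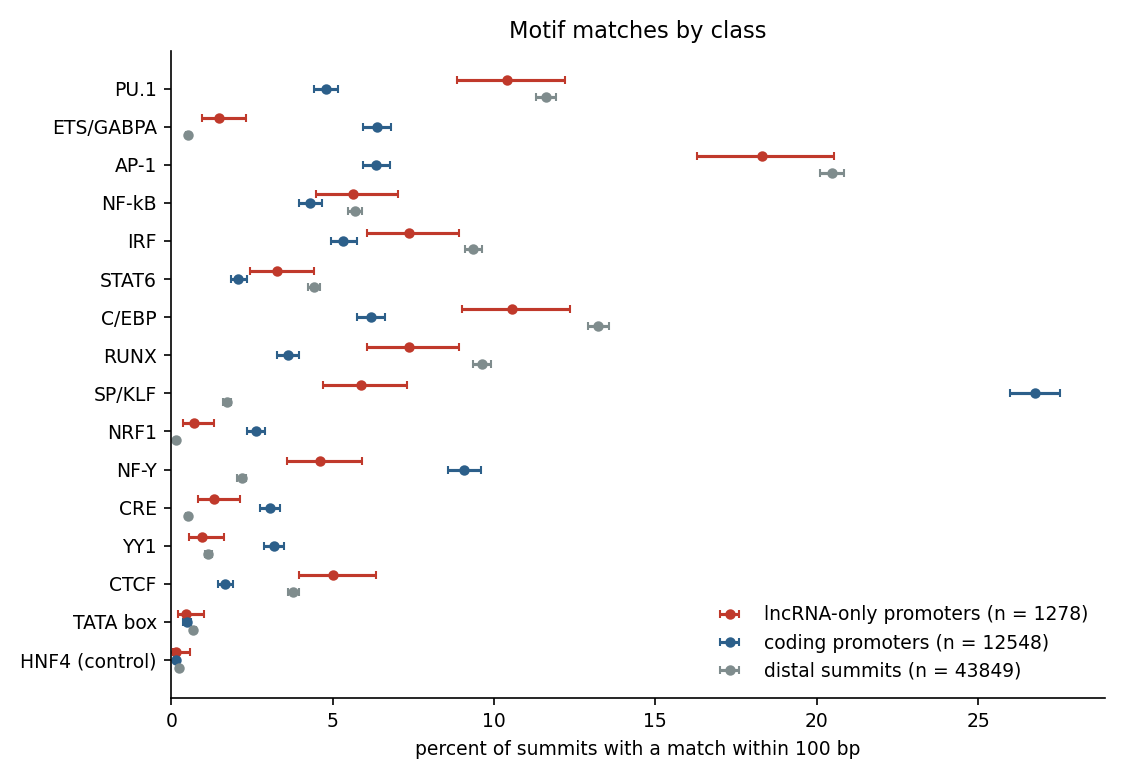
Percent of summits with at least 1 match to each of 16 consensus motifs within 100 bp of the summit, with 95% Wilson intervals, for the 3 classes. Members lie near distal summits for AP-1 (18.3% and 20.5%) and PU.1 (10.4% and 11.6%), and between both classes for SP/KLF (5.87%, with 26.8% at coding promoters and 1.72% at distal summits).

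The motif differences were repeated within CpG classes, a comparison added after the data were seen. Mean GC content was 48.5% at CpG-poor members and 51.4% at CpG-poor coding promoters, and 61.8% and 64.4% at CpG-rich ones. The classes thus did not make base composition equal, and its part in the motif differences was not tested. Among CpG-poor windows, members held AP-1 more often than coding promoters (20.6% against 13.9%, exact permutation test, adjusted p = 0.0210). CTCF was also more frequent (5.14% against 3.23%, exact permutation test, adjusted p = 0.0361). Less frequent were SP/KLF (3.16% against 8.74%, exact permutation test, adjusted p = 2.75e-05) and NF-Y (3.79% against 5.73%, adjusted p = 0.00527). The other 12 motifs did not pass there. Of these, 9 had passed over all members: PU.1 (11.6% against 9.58%; exact permutation test, adjusted p = 0.0689), C/EBP (11.8% against 9.91%; adjusted p = 0.316), RUNX (8.12% against 7.05%; adjusted p = 0.426), NF-kB (6.05% against 5.53%; adjusted p = 0.236), IRF, for which the order was turned (7.94% against 8.98%; adjusted p = 0.275), NRF1, which also turned (0.361% against 0.265%; adjusted p = 0.530), ETS/GABPA, CRE and YY1. The AP-1 difference did not pass with a motif window of 50 bp (exact permutation test, adjusted p = 0.0692). That of CTCF did not pass with that window (adjusted p = 0.0778, exact permutation test), with a start window of 2500 bp (0.533) or with support level 1 or 2 (0.977), and the NF-Y difference did not pass with the last (0.987). Of the 16 motifs, 1 differed between CpG-poor members and CpG-poor distal summits, namely SP/KLF (3.16% against 1.46%; exact permutation test, adjusted p = 0.0165). That difference did not pass with support level 1 or 2 (exact permutation test, adjusted p = 0.237) or a motif window of 50 bp (0.0552). Among CpG-rich windows, SP/KLF matched 23.5% of members and 36.9% of coding promoters (exact permutation test, adjusted p = 0.00491, and 0.0977 with support level 1 or 2). ETS/GABPA matched 4.12% and 9.08% there (exact permutation test, adjusted p = 0.00841, lower on 15 of 19 chromosomes). The ETS/GABPA call rests on only 7 of 170 members spread over 19 chromosomes, and it was not recomputed under the alternative settings. The control HNF4 was the third motif called there (exact permutation test, adjusted p = 0.0352), but on 0 of 170 members, a count that allows a share of up to 1.76%, against 0.0997% of coding promoters, so nothing is read from it. Within the members, AP-1 matched 20.6% of CpG-poor and 3.53% of CpG-rich windows (lower on 19 of 19 chromosomes; exact permutation test, adjusted p = 6.48e-05).

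The best scored members were then identified. C920006O11Rik, a lincRNA on chromosome 9, had the highest score of 2442, but the 32 bases at its summit occurred 4 times in the genome. It was followed by 1700096K18Rik and Gm44545 (2271 each), 6720427I07Rik (2258), Gm33524 (2245), 2810410L24Rik and Gm10010 (2193 each), AA465934 and Gm49226 (2179 each) and Gm20732 (2166). Of these 10, 6 were CpG-rich. Gm44545, Gm33524 and Gm49226 were CpG-poor and lay in introns of coding genes. The summit of Gm33524, chr14:70057142 in mm10, held AP-1 and NF-kB motifs.

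The widest reference peaks with a member summit were those of 1700012D14Rik (1000 bp), 5031425E22Rik (947 bp), Gm5112 (904 bp), Gm7461 (901 bp) and Gm26901 (893 bp). All except Gm5112 were CpG-rich. The most summits in 1 extended region, 8, were found at Mir142hg (score 1877), the host gene of the blood cell microRNA miR-142. There were 7 at Gm37947, whose summit lay 1858 bp from the nearest start of Myc, and 6 each at Mir155hg, Zmiz1os1 and 5031425E22Rik. Apart from that of Mir155hg, these regions also spanned coding starts. Within 1000 bp of a coding start lay 3 of the 8 summits at Mir142hg, 5 of the 7 at Gm37947, 2 of the 6 at 5031425E22Rik and 1 of the 6 at Zmiz1os1.

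Long noncoding genes from 4 lists were looked up by name. Of 17 autosomal lncRNA genes in the macrophage and innate immunity list, 14 had a start site peak (82.4%, 95% Wilson interval 59.0% to 93.8%), compared with 23.2% of all autosomal lncRNA genes when every start was counted. Over starts more than 1000 bp from coding starts, the counts were 9 of 15 (60.0%) and 1546 of 10594 (14.6%). The 4 lists were chosen with earlier results of these data known, so their shares are descriptions and no test. Among all lncRNA genes the share rose with the number of such starts, from 12.5% with 1 to 32.2% with 3 or more. The lists were not matched for this number. Of the 14 with a peak, 9 were members, with a median score of 1260 against 900 over all members. The other 5 shared the summit with a coding start (Ptgs2os, Ttc39aos1, Gm16685, Gm15441 and Hotairm1). In each list, a gene with more than 1 member enters with 1 score, whereas the 900 counts every member. In the macrophage list this applies to Mir155hg, Gm14005, AW112010 and Lncpint. Nron, Chaer1 and Gm12940 had no start site peak. The highest scored were Ptgs2os2 (1734), the gene of lincRNA-Cox2, and Dnmt3aos (1696), antisense to the DNA methyltransferase gene Dnmt3a. Lncpint, a p53-induced lncRNA, had a score of 1568 and Gm14005, also known as Morrbid, a regulator of myeloid cell survival, one of 1406. Mir155hg, the host gene of the inflammatory microRNA miR-155, had a score of 1260, Gm20559 one of 1188 and Gm5547 one of 1082. AW112010, a transcript of activated macrophages, had 867 and Mirt1 706, the only 2 of the 9 below the median of all members.

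Genes of the widely expressed and small nucleolar RNA host list were also mostly accessible. A start site peak was present at 24 of 26 autosomal genes (92.3%, interval 75.9% to 97.9%), against 23.2% of all autosomal lncRNA genes. Over starts more than 1000 bp from coding starts it was present at 20 of 21 (95.2%). That compares with 14.6% of all lncRNA genes and 60.0% of the macrophage list. Of the 24 genes, 16 were members and 7 had a summit shared with a coding start (Gas5, Snhg1, Snhg3, Snhg9, Snhg10, Zfas1 and Tug1). Neat1, which builds paraspeckles, had a peak but no best summit within the limit. The members had a median score of 1486.5, and 13 of 16 were CpG-rich. Scores were 1995 for Snhg15, 1982 for Kcnq1ot1, the imprinted antisense transcript of Kcnq1, 1916 for Snhg8, 1799 for Snhg5, 1734 for Dancr, 1708 for Dleu2 and 1619 for Malat1, an abundant nuclear lncRNA. The lowest were 834 for 2900097C17Rik, 759 for Pvt1, a neighbour of Myc, and 367 for Snhg14. Snhg18 and Gm26917 had no start site peak.

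Of 9 autosomal microRNA host genes, 6 had a start site peak (66.7%, against 23.2% of all autosomal lncRNA genes). Of these, 4 were members: Mir142hg (1877), A330023F24Rik (1153), Mir99ahg (1106) and Mir670hg (867). Mir124-2hg, Mir124a-1hg and Mir9-3hg, hosts of microRNAs of the nervous system, had no start site peak. Of 31 tissue-restricted or imprinted lncRNA genes, 5 had a start site peak (16.1%, interval 7.09% to 32.6%, which includes the 23.2% of all lncRNA genes) and 26 had none, among them H19, Meg3, Airn, Hotair, Sox2ot and Fendrr. The 3 members of that list were Trp53cor1, the gene of lincRNA-p21 beside Cdkn1a (score 1773), Crnde (1683) and Peg13, an imprinted gene (856). Gene names that the annotation lacked numbered 16 over the 4 lists (2, 6, 7 and 1).

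**Figure D5:**
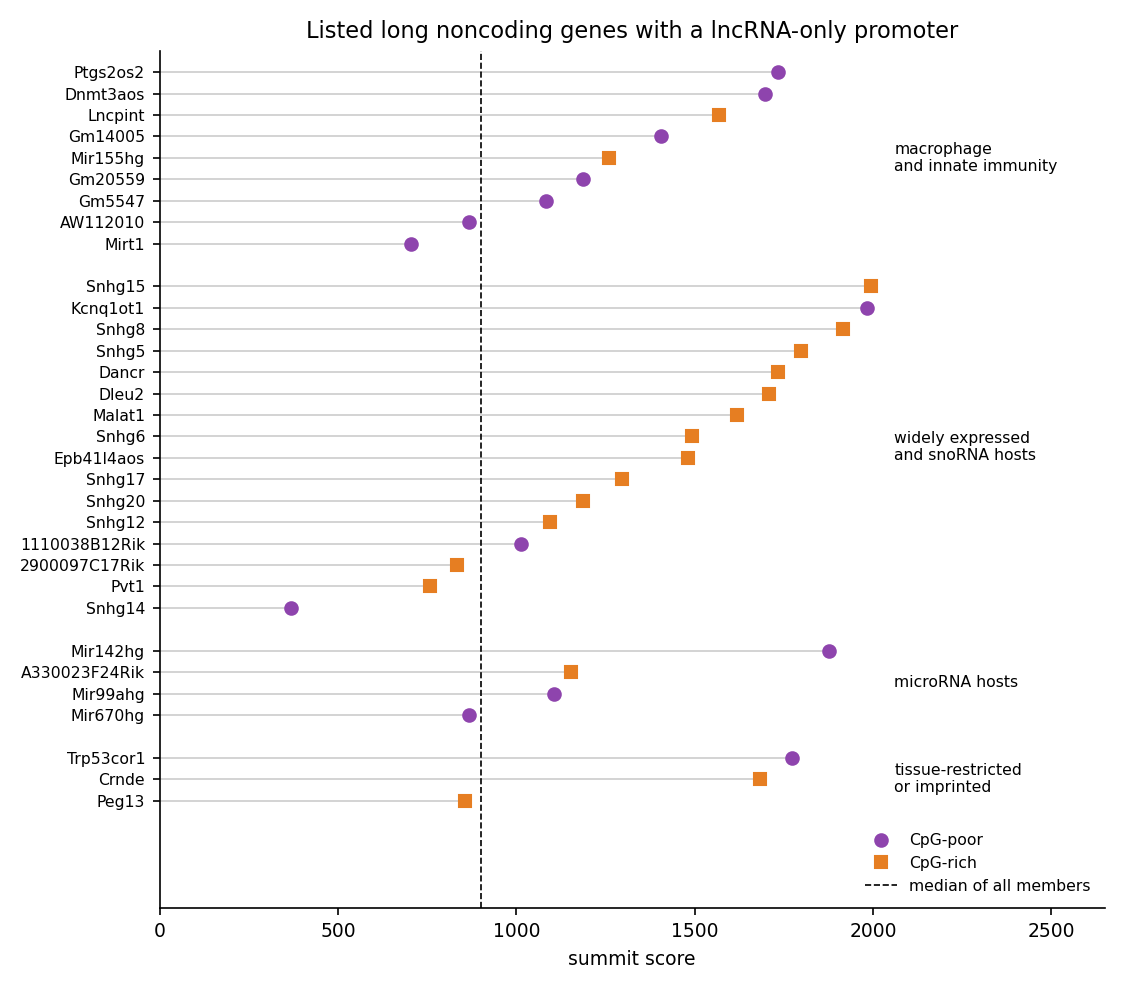
Summit scores (horizontal axis, from 0) of the listed long noncoding genes whose start has a lncRNA-only promoter, grouped by list, with circles for CpG-poor and squares for CpG-rich windows and a dashed line at the median of all members (900). In the widely expressed and small nucleolar RNA host list 13 of 16 are CpG-rich, and in the macrophage list 2 of 9.

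Members near stimulus-responsive coding genes were few. Among 30 LPS response genes, 3 had a member within 50000 bp of a start, and among 28 autosomal IL-4 response genes 3, compared with 1893 of 20807 coding genes in all (9.10%, 95% Wilson interval 8.71% to 9.496%). These shares lie near the background. Il1bos had a score of 1799 and its summit lay 2329 bp from a start of Il1b, which encodes the cytokine IL-1 beta. Near Acod1, which encodes the itaconate-producing enzyme, lay 4933432I03Rik (score 1760, 13344 bp) and Gm34643 (score 1929, 34226 bp), both with an AP-1 motif. The CpG-rich 5930403N24Rik (score 1543) lay 2183 bp from Marcks. In the IL-4 list, Gm37947 lay near Myc (score 1683, 1858 bp), AC119228.1 near Pdcd1lg2 (score 1394, 25769 bp) and Gm38161 near Batf3 (score 563, 32577 bp). Since the lists are pooled over all groups, these scores carry no information on when a site was accessible.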

How the data were processed

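ATAC-seq libraries of BMDMs (18 libraries, 9 groups of 2) had been processed by the authors with BBDuk, Trimmomatic 0.39, ShortStack, SAMtools 1.9 and MACS2 2.2.6 on mm10, with duplicates kept and no shift to the Tn5 cut site named. A summit can therefore lie beside the point of most insertions, and its value can include PCR copies. By the paper's account, its reference set kept peaks under a q-value limit that recurred between replicates. A start without a reference peak is thus one without a peak that met these limits. The authors deposited 3 BED lists pooled over all libraries. They hold positions and, for summits, a score as deposited by the authors, whose scale is not stated. The lists carry 0 columns of other samples and none per library, so depth and its precision are unknown.

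Per extended region, the summit with the highest score was kept and classed by its distance to GENCODE M21 starts, counting every transcript of a gene of type protein_coding as coding. CpG content was read within 250 bp and motifs within 100 bp of the summit on GRCm38.p6. Differences are means over 19 autosomes of within-chromosome differences, tested by an exact two-sided sign-flip permutation test with Benjamini-Hochberg adjustment over 108 comparisons (Python 3.11.15, numpy 2.4.6, scipy 1.17.1). The p-values measure the spread between chromosomes of 1 pooled list, not between libraries or animals, and neighbouring regions are not independent. The test was checked on simulated data. Wilson intervals (95%) cover counting error only.

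The members and lists were chosen with earlier results of these data known. Genes named are those of the 4 lncRNA lists, the 10 highest scored members, the 5 in the widest peaks, the 5 in regions with most summits, members at the limits of the rule and members near LPS or IL-4 response genes. Sequence windows were lengthened to the 201 bases searched for motifs after the data were seen. Alternatives covered start windows, score and repeat filters, gene and transcript types, CpG and motif settings and chromosome weights, and 6 more were chosen after seeing the data.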

Additional observations from a re-analysis of the deposited data

Results flagged for a closer look

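Chromosome X was left out of all comparisons. By the same rule it held 22 lncRNA-only promoter summits among its 1207 extended regions (1.82%, 95% Wilson interval 1.21% to 2.74%), with a median score of 1100. This signal lies in data that the comparisons did not use. The highest scored were 5730405O15Rik (1825) and 9530027J09Rik (1568), and Firre (1443) and Ftx (1418) were among the 22.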

How the results depend on the processing

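No paired analysis was possible because the lists are pooled and carry no column per library, although the labels number 2 replicates in each group, and no replicate could be left out for the same reason. Across 18 alternative settings, 189 of 202 recomputed values of the 17 main differences kept their direction and their side of the threshold, and 243 of 268 did so for 20 further motif, GC and CpG-poor results.

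The number of members stayed within 1.5 times 1278 in 6 of 10 settings, down to 913 with a start window of 500 bp, and changed to 2098 with a start window of 2500 bp, 801 with summits at or above the median score (737), 546 with lncRNA transcripts of support level 1 or 2 and 1991 with every summit on its own. Of the differences from coding promoters in score, that of CpG-poor members fell short of the threshold with a 2500 bp window (-24.6) and with support level 1 or 2 (-36.7). With every summit on its own it did not pass either, and its mean over chromosomes turned slightly positive (5.45). For CpG-rich members the difference no longer passed with start windows of 500 bp (-148) and 2500 bp (-197), summits at or above the median score (-114), support level 1 or 2 (-148), every summit on its own (-168), CpG read within 500 bp (-138) and a CpG ratio of at least 0.75 (-141). The PU.1 difference from distal summits passed with a 500 bp start window (-2.41 points), and that of AP-1 passed with every summit on its own (-3.45 points). With support level 1 or 2, the AP-1 mean over chromosomes turned slightly positive (0.145 points). The CRE difference from coding promoters reversed with support level 1 or 2 (0.158 points). The cause was not tested. The difference in start site peaks between lncRNA and coding genes ranged from -44.2 to -16.0 points, the latter for genes with 1 annotated start. Counting only coding transcripts as coding starts gave 1312 members. These 2 settings, and those of unique summits, 1 start per gene, every lncRNA start and regions without a coding start, were chosen after seeing the data.

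The score orders summits on an unstated scale, and the depth behind it is unknown.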
